A study of Mus musculus with 9 samples.

Results

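Some stretches of the genome carry many binding sites of MEIS1 close together, and 664 such stretches, called hubs here, are described in mouse leukaemia cells before and after activation of TGIF1. The hubs were chosen on measured MEIS1 binding in the cells given ethanol. Peaks of the 2 MEIS1 EtOH libraries were merged on an overlap of 1 bp or more, and a merged region was kept if both libraries had a peak in it. Kept regions separated by 12500 bp or less were then stitched together, and stitched groups of 4 or more kept regions were the hubs. The 22793 kept regions gave 15510 stitched groups, lone regions included. The 664 hubs made up 4.28% of these groups and held 3230 kept regions, 14.2% of all.

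MEIS1 is a homeodomain protein of the TALE class that binds DNA together with HOX and PBX proteins, and leukaemias driven by MLL fusion proteins are known to depend on it. TGIF1 belongs to the same TALE class, but is known as a transcriptional repressor that can bind similar DNA motifs and recruit co-repressors. Clusters of neighbouring sites stitched over distances of this kind are the usual way to outline super-enhancers, the large enhancer regions found near genes of cell identity. No enhancer mark or expression was measured in the lists used here, so the cell type could not be checked by markers, and the hubs are not called enhancers.

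The cells came from c-kit+ bone marrow of the C57BL/6 strain, transformed with the fusion oncogene MLL-AF9 and then transduced with pMIG-TGIF1-ER, in which TGIF1 is joined to the estrogen receptor and is activated by 4-hydroxytamoxifen (4-OHT). All groups carried both MLL-AF9 and TGIF1-ER, and they differed in treatment (EtOH, or 4-OHT for 20 h) and in the antibody used for chromatin immunoprecipitation and sequencing (TGIF1 or MEIS1). Each of the 4 groups had 2 libraries, and there was no group given 4-OHT without TGIF1-ER, so effects of 4-OHT and of TGIF1 cannot be told apart. The IgG sample was not analysed here. The MEIS1 EtOH lists held 26254 and 43564 peaks, the MEIS1 4-OHT lists 21173 and 48829, the TGIF1 EtOH lists 2764 and 592 and the TGIF1 4-OHT lists 12141 and 26932. The sequencing depth is unknown and no list gives a peak height, so presence of a peak, not strength of binding, is reported throughout. Separate cultures are not stated for the libraries of any group, and the spread between them may therefore be technical.

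Most hubs were small, and a few were very dense. Of the 664 hubs, 369 (55.6%) held exactly 4 kept regions, 155 held 5, 65 held 6, 44 held 7 and 31 held 8 or more. The largest number was 14, reached by 2 hubs. Hub length ran from 5061 to 65344 bp with a median of 20583.5 bp (quartiles 15202.8 and 27964 bp), 315 hubs being shorter than 20 kb and 18 longer than 50 kb. Within hubs, the median gap between neighbouring kept regions was 4133 bp (quartiles 1533.75 and 7567.75 bp), well under the allowed gap. The MEIS1 regions themselves covered 18.2% of the total hub length of 15021.7 kb, and between 6.43% and 68.6% of single hubs. Below the threshold lay 970 groups of 3 kept regions, 2777 groups of 2 and 11099 lone regions.

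**Figure D1:**
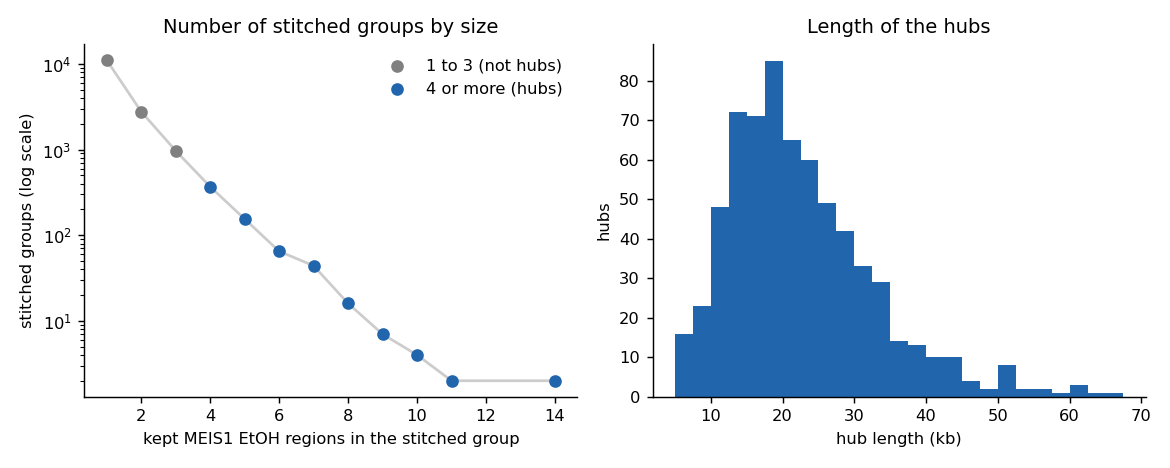
Left, number of stitched groups (log scale) against the number of kept MEIS1 EtOH regions in the group, grey for 1 to 3 and blue for the hubs of 4 or more; right, number of hubs by length in kb. The number of groups falls from 11099 lone regions to 369 hubs of 4 and 2 hubs of 14, with 315 hubs shorter than 20 kb and 18 longer than 50 kb.

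The 2 MEIS1 EtOH libraries outlined the hubs unequally. Replicate 1 had 3473 peaks over hubs and replicate 2 had 3885. Peaks in hub spans that lay outside the kept regions numbered 53 in replicate 1 and 655 in replicate 2. Replicate 2, the longer list, therefore showed further sites inside the hubs that replicate 1 did not. Hubs took in 13.2% of the peaks of MEIS1 EtOH replicate 1 and 8.92% of those of replicate 2. By the same rule applied to single lists, MEIS1 EtOH replicate 1 gave 931 hubs and replicate 2 gave 2630, so the longer list gave more hubs.

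Hubs were spread over all autosomes, with a wide range between chromosomes. Chromosome 15 held 58 hubs, which contained 22.4% of its kept regions, and by this share chromosome 7 followed with 18.8% (56 hubs), then chromosome 17 with 18.4% (41 hubs). Chromosome 18 was the lowest of the autosomes with 8.27% (12 hubs). The X chromosome held 1 hub, chrX:93413434-93431554 (mm9, as all positions here), with 4 kept regions and no TGIF1 peak in any list. The median distance to the nearest hub of the same chromosome was 500.1 kb, and 142 hubs (21.4%) had another within 100 kb.

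Some hubs lay in runs. Of the 1-Mb windows of the genome 480 contained a hub, 33 contained 3 or more and 7 contained 4 or more. The window of chromosome 8 from 129000001 to 130000000 held 6 hubs with 34 kept regions, and the window of chromosome 15 from 78000001 to 79000000 held 6 with 33. On chromosome 8 the run began with chr8:129019301-129025096 and ended with chr8:129370981-129397716, and TGIF1 was found in both induced libraries at 1 to 3 kept regions of each of its 6 hubs. On chromosome 15 the 6 hubs differed more. The densest, chr15:78070601-78099601, had TGIF1 at 4 of 7 kept regions, while chr15:78277378-78294062 had a TGIF1 peak at none of its 4 kept regions in any TGIF1 library. The share of regions with TGIF1 thus ran from 20% to 37.5% of a hub in the run on chromosome 8 and from 0 to 60% in the run on chromosome 15.

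Most hubs held TGIF1 peaks in each 4-OHT library, and fewer did in each EtOH library. Under EtOH, TGIF1 peaks in hubs numbered 260 in replicate 1 and 44 in replicate 2. Under 4-OHT they numbered 1325 and 2434. Both induced libraries lay above both EtOH libraries, and the libraries of each treatment differed widely from each other. The mean was 152 ± 153 (SD, n = 2) under EtOH and 1879.5 ± 784 (SD, n = 2) under 4-OHT, which is 12.4 times as many (log2 ratio 3.63). The two-sided exact permutation test gave p = 0.333, the smallest that 2 against 2 libraries allow. Without TGIF1 EtOH replicate 1 the log2 ratio was 5.42, and without TGIF1 EtOH replicate 2 it was 2.85. It was 4.00 without TGIF1 4-OHT replicate 1 and 3.12 without replicate 2. With the lists of an antibody cut to equal length it was 0.63, over 216 hubs drawn on the cut MEIS1 lists. Each TGIF1 list of either treatment then held 592 peaks, so this value is not on the scale of the 3.63. With the full lists the log2 ratio outside hubs was 3.53, so the increase inside hubs was close to the increase of the full lists as a whole.

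Counted by hub, a TGIF1 peak was present in 201 hubs in TGIF1 EtOH replicate 1 and in 42 in replicate 2, against 549 and 637 hubs in the 4-OHT libraries. A single hub had at most 4 and 2 TGIF1 peaks in the EtOH libraries and at most 14 and 13 in the 4-OHT libraries. The median per hub was 0 in both EtOH libraries and 2 and 3 in the 4-OHT libraries. Within replicate 1, 507 hubs had more TGIF1 peaks under 4-OHT, 153 had equal numbers and 4 had fewer. Within replicate 2, 635 hubs had more under 4-OHT. In 26 hubs none of the 4 TGIF1 lists had a peak.

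In 503 hubs (75.8%) both 4-OHT libraries had more TGIF1 peaks than both EtOH libraries, where 29.0% of all 15510 stitched groups did. This share followed the number of regions in a group. It was 20.5% of lone regions, 41.7% of groups of 2, 58.0% of groups of 3 just outside the threshold, 71.5% of hubs of 4 just inside it, and 74.8% of hubs of 5. A group with more regions has more places for a peak, so the count per hub does not set hubs apart from other MEIS1 regions, and the comparison was repeated per region.

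Per region, TGIF1 was somewhat more frequent in hubs than elsewhere. A kept region is said to carry TGIF1 when it overlaps a TGIF1 4-OHT region formed by peaks of both induced libraries. The overlap itself may be with the peak of 1 library only. TGIF1 was carried by 1109 of the 3230 hub regions (34.3%, exact 95% interval 32.7 to 36.0%), beside 29.8% of all kept regions and 29.1% of those outside hubs (exact 95% interval 28.5 to 29.7%). In TGIF1 4-OHT replicate 1 a peak was present at 34.1% of hub regions and 29.1% of the others, and in replicate 2 at 58.5% and 51.2%. Both induced libraries therefore gave the higher share in hubs, although the 2 libraries were much further apart than hubs and other regions were. The difference was 5.09 percentage points in replicate 1 and 7.24 in replicate 2 (mean 6.17 ± 1.52, SD, n = 2, two-sided exact sign permutation p = 0.5, the smallest that 2 libraries allow). For TGIF1 in both libraries it was 5.24 points. It was 2.67 with centres within 200 bp, and 2.39 with a reciprocal overlap of 50%, which left 139 hubs. With lists of equal length it was 0.982, over 216 hubs. Each TGIF1 list then held 592 peaks, so few regions could carry TGIF1 and these points are not on the scale of the 5.24. The intervals cover counting error only, and regions of 1 hub are not independent of each other.

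Under EtOH no such difference between hub regions and the rest was seen in both libraries. A TGIF1 peak lay at 7.09% of hub regions and 6.81% of the others in TGIF1 EtOH replicate 1, and at 1.27% and 1.39% in replicate 2. TGIF1 had newly appeared, with a peak region in both 4-OHT libraries and no peak in either EtOH library, at 882 hub regions (27.3%, beside 23.0% of all kept regions). These were 79.5% of the hub regions that carried TGIF1, against 76.6% of TGIF1-carrying regions elsewhere. The EtOH lists are short, and a peak absent from them does not show that TGIF1 was absent.

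The share of regions with TGIF1 was also read along the size of the stitched group. It was 27.2% for lone regions, 31.0% in groups of 2 and 32.6% in groups of 3 (exact 95% interval 30.9 to 34.3%). In hubs of 4 it was 33.9% (31.5 to 36.4%), in hubs of 5 it was 30.7% (27.5 to 34.1%), in hubs of 6 or 7 it was 36.1% (32.5 to 39.8%), and in hubs of 8 or more it was 42.3% (36.5 to 48.4%). Groups of 3 and hubs of 4, on either side of the threshold, were close in value (32.6% and 33.9%), and their intervals overlapped. The intervals cover counting error only and regions of 1 group are not independent, so the overlap does not test for a step. The densest hubs had the highest share in each induced library, 43.1% in replicate 1 and 65.5% in replicate 2, over 281 regions. Median region length rose over the same classes, from 664 bp for lone regions to 758 bp in hubs of 8 or more. The part of length in the shares by group size was not tested.

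**Figure D2:**
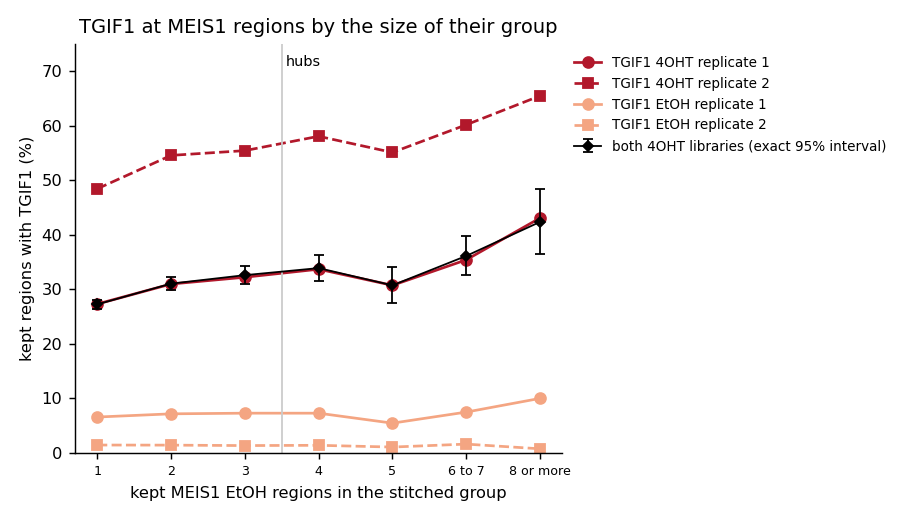
Share of kept MEIS1 regions with TGIF1 (%) against the number of kept regions in their stitched group, by TGIF1 library (circles replicate 1, squares replicate 2, dark 4-OHT, pale EtOH). Black marks regions that overlap a TGIF1 region formed by both 4-OHT libraries (bars are exact 95% intervals for counting error). The 4-OHT share is 27.2% at lone regions and 42.3% in hubs of 8 or more for TGIF1 in both libraries, and the EtOH libraries lie at 10% or lower throughout.

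Region length moved together with hub membership. Kept regions had a median length of 739 bp in hubs and 678 bp outside, and within hubs those with TGIF1 had a median of 846 bp against 690 bp for those without. With all kept regions in 5 equal classes of length, TGIF1 was carried by 15.1% of hub regions and 13.1% of others in the shortest class. In the next 3 classes the shares were 22.8% and 19.7%, 29.0% and 26.3%, and 41.9% and 35.8%. The order turned in the longest class, with 49.0% of hub regions and 53.1% of others. When the other regions were reweighted to the length classes of hub regions, their share was 32.7% and the difference to hubs 1.67 points (1.58 and 2.39 points in the single libraries). The difference was thus 5.24 points before reweighting and 1.67 after it, and it did not have 1 direction in all classes.

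**Figure D3:**
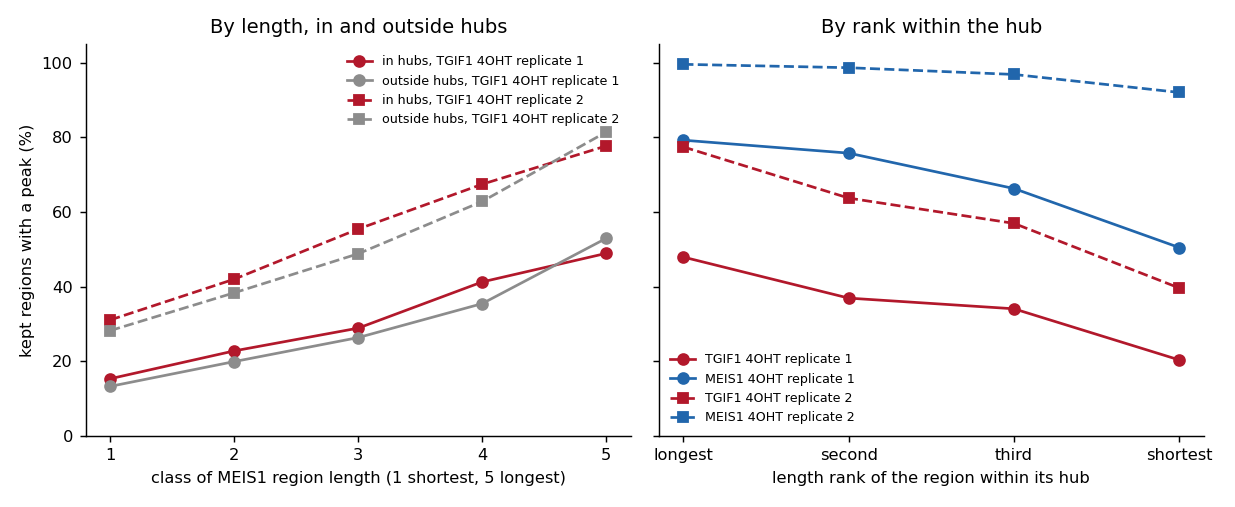
Left, share of kept MEIS1 regions with a TGIF1 peak (%) by class of region length, in hubs (red) and outside (grey), for TGIF1 4-OHT replicate 1 (solid) and replicate 2 (dashed); right, share of hub regions with a TGIF1 (red) or MEIS1 (blue) 4-OHT peak by the length rank of the region in its own hub. Both TGIF1 libraries rise with length, hubs lie above other regions in all classes but the longest, and over the 664 hubs the shares are highest for the longest regions and lowest for the shortest.

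Within single hubs TGIF1 was unevenly placed. It was carried by 48.5% of the longest regions of the 664 hubs, 37.2% of the second longest in each hub, 34.0% of the third longest and 20.6% of the shortest. In single libraries the longest region had a TGIF1 peak in 47.9% (replicate 1) and 77.4% (replicate 2) of hubs, and the shortest in 20.3% and 39.6%. The first and last regions of a hub carried TGIF1 in 32.8% of cases and inner regions in 35.4%. Rank by length thus separated the regions of a hub more than position at its edge did.

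Of the 664 hubs, 541 (81.5%) had TGIF1 at 1 or more kept regions, beside 36.0% of all stitched groups, and 123 (18.5%) had it at none. This share, too, followed group size, from 27.2% of lone regions and 65.1% of groups of 3 to 77.5% of hubs of 4 and 90.7% of hubs of 6 or more. TGIF1 was at exactly 1 region in 219 hubs and at 2 or more in 322. In 226 hubs (34.0%) it was at 50% or more of the regions, and in 14 it was at every one. The median hub had TGIF1 at 25% of its regions (quartiles 20 and 50%). Where it was at a single region, that region was the longest of the hub in 101 of 219 hubs (46.1%), and it was an outer region in 100. The 2 counts have unlike backgrounds. Over all hubs, 664 of the 3230 regions were the longest of their hub and 1328 were outer regions.

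Hubs of 4 show the spread at constant size. Of 369 such hubs, 83 had TGIF1 at none of the 4 regions, 140 at 1, 91 at 2, 42 at 3 and 13 at all 4. The part of hubs without any TGIF1 region was 22.5% among hubs of 4, 17.4% among hubs of 5, 12.3% among hubs of 6 and 11.4% among hubs of 7. All 31 hubs of 8 or more had TGIF1 at some region by this overlap rule. In chr4:132144372-132195261, however, TGIF1 4-OHT replicate 1 had 0 peaks in the hub and replicate 2 had 6. Over 2566 pairs of neighbouring regions in a hub, TGIF1 was at both in 362, at 1 of them in 1058 and at neither in 1146. A region carried TGIF1 in 40.9% of cases when the region before it did, and in 31.8% when it did not. However, 1 TGIF1 region can overlap 2 neighbouring kept regions and then counts at both. In chr2:73300901-73324799, for example, 3 kept regions carried TGIF1 while 2 TGIF1 regions lay in the hub. How many of the 362 pairs share a TGIF1 region was not counted, so they are not all separate sites.

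Hubs without TGIF1 and hubs rich in it differed in other respects as well. The 123 hubs with no TGIF1 region had a median length of 18121 bp, and their longest region had a median of 961 bp. The 226 hubs with TGIF1 at 50% or more of their regions had medians of 21006.5 bp and 1270.5 bp. Most hubs of the first kind were not free of TGIF1 in single libraries, since only 29 of all hubs had no TGIF1 peak at a kept region in either 4-OHT library. Conversely, 461 hubs had no TGIF1 peak under EtOH in either library, and 340 of these had TGIF1 at 1 or more regions under 4-OHT.

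Seen from TGIF1, a part of its sites lay in hubs, which spanned 15021.7 kb in all. Of 11143 regions with TGIF1 in both 4-OHT libraries, 1210 (10.9%) lay in hubs. The share of kept MEIS1 regions in hubs was 14.2%, but these shares have unlike denominators. Of the 11143 TGIF1 regions, 4352 (39.1%) overlapped no kept MEIS1 region. The lower share therefore does not show that TGIF1 was scarcer in hubs. Per kept region, TGIF1 was carried by 34.3% in hubs and 29.1% outside. Of the 1210 TGIF1 regions in hubs, 113 lay in the gaps between kept regions, and 38 had no MEIS1 peak in any of the 4 MEIS1 lists. These were 9.34% and 3.14% of the TGIF1 regions in hubs, against 42.7% and 12.1% of those outside. Hub spans were drawn on MEIS1 peaks, so a lower share in hubs follows from the choice. Where peaks overlapped, the median distance between TGIF1 4-OHT and MEIS1 summits was 26 to 30 bp in hubs over the 8 pairs of libraries, and 26 to 31 bp elsewhere. Summits within 50 bp made up 60.4 to 66.5% of pairs in hubs and 62.5 to 67.4% elsewhere.

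The same rule applied to the TGIF1 4-OHT lists gave 180 hubs of up to 9 regions, from 11143 regions against the 22793 of MEIS1 EtOH. The number of hubs moves with the number of regions, and with the longer 50% of each list MEIS1 EtOH gave 109 hubs. The 180 TGIF1 hubs overlapped 88 of the 664 MEIS1 hubs (13.3%), and 89 (49.4%) of the TGIF1 hubs overlapped a MEIS1 hub.

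The hubs with most kept regions show what these numbers look like along the genome. The longest of the 2 hubs with 14 kept regions was chr16:95624852-95686709, 61858 bp long, and 366300 bp from the nearest other hub. TGIF1 peaks in it numbered 0 and 0 in the EtOH libraries, and 5 and 10 in the 4-OHT libraries. TGIF1 was in both induced libraries at 4 of the 14 regions, which were the first 3 of the hub and 1 that began 51.4 kb from its start. MEIS1 peaks were at 11 and 14 of the 14 regions in the 4-OHT libraries. A further TGIF1 region in both libraries lay in a gap of the hub, between 2 kept regions.

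The other hub of 14, chr4:88405692-88452446, stood apart from the rest in several measures. TGIF1 peaks were at 4 and 1 of its kept regions in the EtOH libraries and at 13 and 9 in the 4-OHT libraries. It was the only hub of 664 in which replicate 1 had more peaks than replicate 2 in MEIS1 EtOH (19 and 14), MEIS1 4-OHT (16 and 14) and TGIF1 4-OHT (14 and 10). Its regions were also evenly spaced. Of the 13 distances from the start of a region to the start of the next, 12 were between 2.81 and 3.05 kb, within 10% of the hub's median, and the other was 10.1 kb. Among the 140 hubs of 6 or more regions the median share of such distances was 20%, and the next highest after the 92.3% of this hub was 60%. In a hub of 6 regions 1 of the distances is the median itself and always counts. The 20% is therefore the lowest such a hub can reach. The spacing was looked at after the hub had been drawn. Whether its DNA is repeated, so that reads of 1 copy could count at others, was not tested, because no genome of this build was used here. Its 9 regions with TGIF1 became 1 with a reciprocal overlap of 50% and 2 with centres within 200 bp, so that its TGIF1 count depends on how overlap is defined.

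The next hubs by number of regions had 10 or 11. The hub chr13:52663268-52724468 had 11 regions, of which TGIF1 was at 1 and 0 in the EtOH libraries and at 6 and 7 in the 4-OHT libraries. For chr10:59359393-59406953, also of 11 regions, these numbers were 0 and 0, then 4 and 7. The longest hub of all, chr5:136934038-136999381, had 10 regions over 65344 bp, with TGIF1 at 2 and 0, then 4 and 6. The induced libraries exceeded both EtOH libraries in each of these.

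In the remaining 5 of the 10 hubs with most regions both induced libraries also lay above both EtOH libraries. In chr6:86506606-86570678 (10 regions) TGIF1 was at 1 and 0 regions under EtOH and at 6 and 8 under 4-OHT. In chr17:26613270-26673015 (10 regions) the numbers were 1 and 0, then 4 and 6, and in chr1:130445580-130502868 (10 regions) they were 0 and 0, then 3 and 5. The hub chr11:8556598-8617388 (9 regions) was lowest of the 10 under 4-OHT, with 1 and 0, then 2 and 5. The hub chr6:108453543-108505590 (9 regions) had 0 and 0, then 6 and 5, and lay 20183 bp from another hub.

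At the upper end of TGIF1 occupancy, chr17:56395258-56429232 was the largest of the 14 hubs with TGIF1 at every region. Its 6 regions carried TGIF1 peaks at 2 and 0 regions in the EtOH libraries and at 6 and 6 in the 4-OHT libraries. MEIS1 peaks were at 2 and 6 of its regions under 4-OHT, so replicate 1 lacked MEIS1 at 4 regions where replicate 2 had it. The next 4 by the rule for named hubs had 4 regions each, all with TGIF1 in both induced libraries. They were chr6:113619567-113647759, chr10:80376733-80402857, chr11:117840479-117862446 and chr15:6504586-6525170. MEIS1 4-OHT peaks were at 3 and 4, 2 and 4, 3 and 4, and 4 and 4 of their regions in that order.

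At the lower end, 5 hubs of 7 regions had TGIF1 in both induced libraries at none. The longest was chr10:19282089-19334488, with no TGIF1 peak in 3 of the 4 TGIF1 lists and peaks at 4 of its 7 regions in TGIF1 4-OHT replicate 2. The others were chr4:46735618-46768156, chr16:3699025-3729911, chr5:114226620-114256089 and chr17:8815682-8835860, with TGIF1 4-OHT replicate 2 peaks at 2, 3, 2 and 1 regions. None of the 5 had a TGIF1 peak in either EtOH library or in TGIF1 4-OHT replicate 1. TGIF1 at these hubs was seen in the longer induced list alone. They were named for having no region with TGIF1 in both induced libraries, so absence from the shorter list largely follows from the choice.

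**Figure D4:**
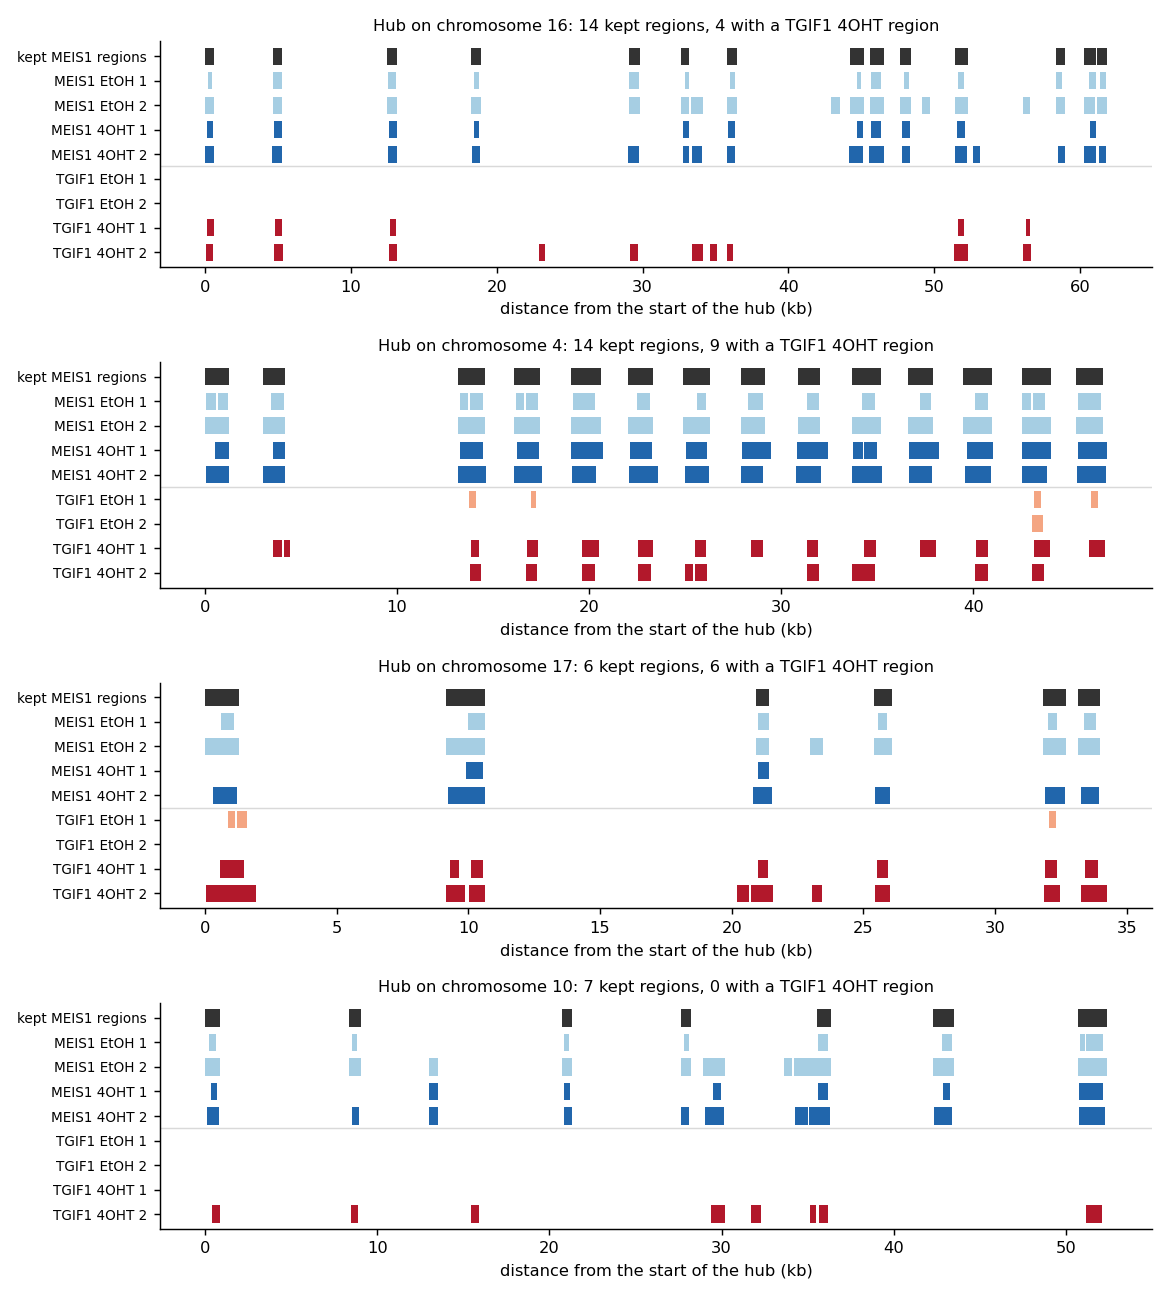
Peaks of the 8 lists in 4 hubs, drawn to scale as distance from the start of the hub in kb: the 2 hubs of 14 regions (chromosomes 16 and 4), the largest hub with TGIF1 at every region (chromosome 17) and the longest hub of 7 without (chromosome 10). Black bars are the kept MEIS1 regions, pale bars EtOH peaks and dark bars 4-OHT peaks (blue MEIS1, red TGIF1), and the hub on chromosome 4 shows regions about 3 kb apart.

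MEIS1 itself stayed at most hub regions under 4-OHT, with the 2 libraries giving unlike pictures. MEIS1 peaks over hubs numbered 3473 and 3885 under EtOH, and 2374 and 3926 under 4-OHT. Replicate 1 was lower under 4-OHT and replicate 2 was slightly higher, so the treatments overlapped. The mean was 3679 ± 291 (SD, n = 2) under EtOH and 3150 ± 1097 (SD, n = 2) under 4-OHT, a log2 ratio of -0.22, smaller than the spread between the 4-OHT libraries. Within replicate numbers the log2 ratio was -0.55 and 0.02. It was 0.09 without MEIS1 4-OHT replicate 1, so that 1 library set its direction. Leaving out MEIS1 4-OHT replicate 2 gave -0.63. Leaving out MEIS1 EtOH replicate 1 gave -0.52, but over another set, the 2630 hubs drawn on MEIS1 EtOH replicate 2 alone. Since MEIS1 EtOH peaks chose the hubs, the choice favours EtOH, and these values are given without a test. Outside hubs the log2 ratio was 0.03 (-0.28 and 0.18 within replicate numbers).

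By region, a MEIS1 4-OHT peak was present at 67.9% of hub regions in replicate 1 and 96.9% in replicate 2, beside 70.4% and 96.6% of other kept regions. A MEIS1 region of both 4-OHT libraries was at 2181 hub regions (67.5%), beside 69.7% of all kept regions. Neither library had a MEIS1 peak at 86 hub regions (2.66%, exact 95% interval 2.14 to 3.28%), beside 2.91% of all. Hub regions were thus close to the background in both measures. The 2.66% rested on the longer list: MEIS1 4-OHT replicate 1 by itself lacked a peak at 32.1% of hub regions and replicate 2 by itself at 3.10%. With hubs built from 1 EtOH list the share without MEIS1 was 11.3% (without MEIS1 EtOH replicate 1) and 6.73% (without replicate 2).

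Missing MEIS1 was scattered over the hubs. In 585 hubs no region was without MEIS1 in both 4-OHT libraries together, in 72 hubs 1 region was, and in 7 hubs 2 regions were, the highest number in any hub. All regions were in both 4-OHT libraries in 117 hubs, and none was in 11. By the size of the group the share without MEIS1 was 3.13% in groups of 3, 3.39% in hubs of 4, 2.19% in hubs of 5, 2.01% in hubs of 6 or 7 and 1.78% in hubs of 8 or more. The exact 95% interval was 2.52 to 4.44% for hubs of 4 and 0.580 to 4.10% for hubs of 8 or more, and the 2 overlapped. These intervals cover counting error only.

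Counted in peaks per hub, replicate 1 had fewer MEIS1 peaks under 4-OHT in 543 hubs, equal numbers in 101 and more in 20. Replicate 2 had fewer in 155, equal numbers in 335 and more in 174. Fewer in both replicate numbers were found in 132 hubs and more in both in 7. The median hub had 5 peaks in each MEIS1 EtOH library, and 3 and 5 in the 4-OHT libraries. In 60 hubs (9.04%) both 4-OHT libraries had fewer MEIS1 peaks than both EtOH libraries, where 4.01% of all stitched groups did. The share was 2.98% of lone regions, 5.19% of groups of 2, 8.97% of groups of 3, 10.3% of hubs of 4 and 10.3% of hubs of 5, but 4.29% (6 of 140) of hubs of 6 or more. In 1 hub (0.151%, beside 0.174% of all groups) both 4-OHT libraries had more. It was chr13:109074227-109107402, with 7 and 7 MEIS1 peaks under EtOH and 8 and 8 under 4-OHT, named here after its values were seen.

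**Figure D5:**
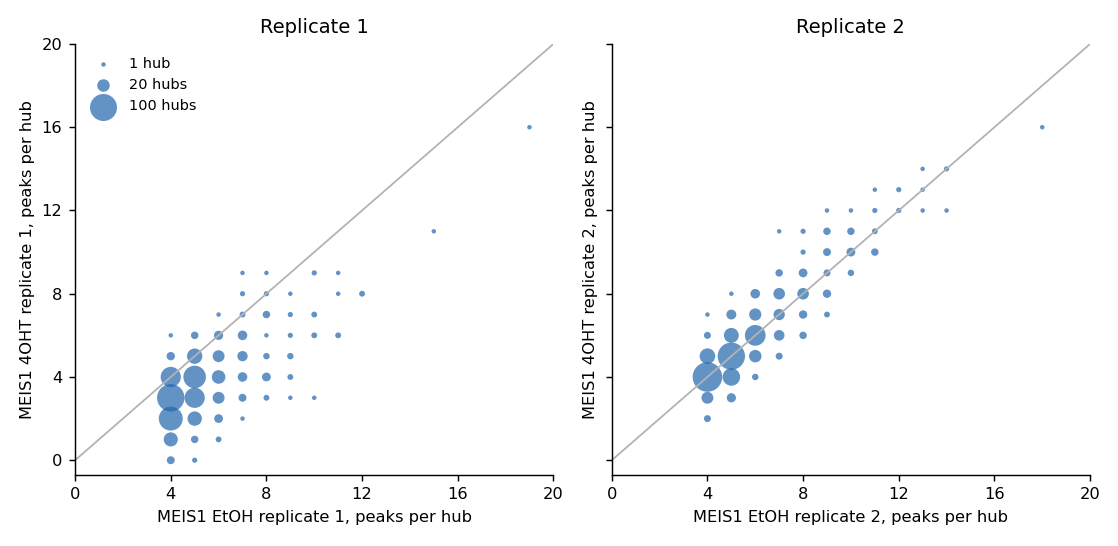
MEIS1 peaks per hub under 4-OHT against MEIS1 peaks per hub under EtOH, replicate 1 on the left and replicate 2 on the right, with the area of a point showing the number of hubs and the grey line showing equality. In replicate 1 543 of 664 hubs lie under the line, whereas in replicate 2 155 lie under it, 335 on it and 174 above it.

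Inside hubs, regions with and without TGIF1 were set side by side. MEIS1 was missing from both 4-OHT libraries at 1.17% of 1109 hub regions with TGIF1 and at 3.44% of 2121 without, and 13 of the 86 such regions carried TGIF1. MEIS1 peaks were at 73.2% of regions with TGIF1 and 65.1% of those without in MEIS1 4-OHT replicate 1, and at 98.4% and 96.1% in replicate 2. Length moves with both. The longest region of a hub had a MEIS1 4-OHT peak in 79.2% (replicate 1) and 99.5% (replicate 2) of hubs and the shortest in 50.5% and 92.0%. The part of length in the difference between regions with and without TGIF1 was not tested.

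The 5 hubs named for missing MEIS1 each had 4 regions, 2 of them without a MEIS1 peak in either 4-OHT library. In chr1:136178808-136212138 MEIS1 4-OHT peaks were at 1 and 2 of 4 regions, and no TGIF1 list had a peak. In chr17:31290682-31313814 they were at 2 and 2, with TGIF1 4-OHT peaks at 1 and 2. In chr10:9599636-9621823 they were at 1 and 2, with TGIF1 at 2 and 3. In chr4:122531984-122549850 they were at 1 and 2, with TGIF1 at 2 and 4. In chr9:114829520-114843475 they were at 1 and 2, with TGIF1 at 1 and 2. These hubs were named for their missing MEIS1, and in TGIF1 4-OHT peaks they ranged from none to 2 and 4 regions.

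Few MEIS1 sites of hubs were seen under 4-OHT alone. Of the 2282 regions with MEIS1 in both 4-OHT libraries that lay in hubs, 6 (0.263%) had no peak in either EtOH library, 1 in each of 6 hubs. Outside hubs the number was 634 of 17582 (3.61%). Hubs were chosen for their EtOH peaks, which works against such regions, and nothing is read from the difference. The 5 named were chr11:8556598-8617388, which also had 1 region without MEIS1, chr7:145394159-145430094, chr13:117796318-117825650, chr19:3321446-3346492 and chr11:98800732-98821400. In the last of these, MEIS1 peaks numbered 5 and 5 under EtOH and 4 and 7 under 4-OHT.

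The same rule was applied to the MEIS1 4-OHT lists as the mirror of the choice on EtOH. It gave 19864 kept regions and 393 hubs with 1844 regions (9.28%), against 664 hubs with 14.2% of regions under EtOH. Of the EtOH hubs 277 (41.7%) overlapped a 4-OHT hub, and these made up 70.5% of the 4-OHT hubs. The other 387 EtOH hubs had fallen short of 4 regions: 176 overlapped a 4-OHT group of 3, 140 a group of 2, 61 a lone region and 10 none. Of hubs of 4, 104 (28.2%) were still hubs, and of hubs of 6 or more, 93 of 140 (66.4%) were. The 4-OHT lists gave 116 hubs that were no hubs under EtOH, the largest being chr9:55094129-55146783 with 7 regions. Its MEIS1 peaks numbered 6 and 9 under EtOH and 8 and 9 under 4-OHT, and its 5 kept EtOH regions were stitched into groups of fewer than 4. Single lists gave 931 and 2630 hubs under EtOH and 454 and 3070 under 4-OHT, a wider range between replicates than between treatments.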

How the data were processed

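Each of the 8 files is the peak list of a single library, deposited by the authors. Per the file headers, its columns give chromosome, start, end, length and summit, and no score or read count. Per the submitters' processing notes, the build is mm9 and the tool named is Bowtie 0.12.7. A header line of MEIS1 4-OHT replicate 2 names MACS 1.4.2. For the other lists the caller, and for all of them the threshold, are not given in the sources used. Depth is unknown.

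Overlap was 1 bp or more, and positions are counted from 1. Python 3.11.15 with numpy 2.4.6, pandas 2.3.3, scipy 1.17.1 and matplotlib 3.10.9 was used. Overlaps were checked against bedtools 2.31.1 (25 of 25 equal) and tested on simulated data (5 of 5 recovered). Peak numbers were compared by log2 ratios of group means with exact permutation over libraries, and intervals are Clopper-Pearson (95%). The numbers of replicates do not pair libraries by any label.

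Members and lists were chosen with earlier results of these data known. Named hubs were the 10 with most kept regions, and the 5 each with the highest and lowest TGIF1 share, most MEIS1 regions missing and most gained (ties by more regions, then length). A planned search for genes near hubs was not run, because an annotation of mm9 was not used here, so no gene is named and no sequence printed. Alternatives are given in the closing section.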

Additional observations from a re-analysis of the deposited data

How the results depend on the processing

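The number of hubs, 664, moved by over 1.5 times in 8 of 17 alternatives: it was 168 with a gap of 5 kb, 1356 with 25 kb, 1634 with 3 or more regions, 295 with 5 or more, 139 with a reciprocal overlap of 50%, 109 with the longer 50% of each list and 216 with lists of equal length. Leaving out 1 library gave 664 to 2630 hubs (2630 without MEIS1 EtOH replicate 1). Only the MEIS1 EtOH libraries define hubs, so leaving out any other library could not move the number from 664. The log2 ratio of TGIF1 peaks in hubs kept its sign in all 19 alternatives, and without single libraries it was 2.85 to 5.42. Among these, leaving out a MEIS1 4-OHT library could not change this ratio and returned the main 3.63. With the replicate number as a block it was 4.07 for TGIF1 and -0.27 for MEIS1. Over hubs, the replicate 1 minus replicate 2 differences under EtOH and 4-OHT had a correlation of 0.01 for TGIF1 and 0.48 for MEIS1. The MEIS1 log2 ratio was -0.63 to 0.094 without single libraries (0.094 without MEIS1 4-OHT replicate 1, the 1 reversal). The TGIF1 share in hubs minus outside kept its sign in all 23 alternatives and was 4.46 to 7.24 points without single libraries. Among these, leaving out a TGIF1 EtOH or a MEIS1 4-OHT library could not change this difference and returned the main 5.24. The 23 also count each TGIF1 4-OHT library by itself (5.09 and 7.24 points), which repeats leaving out the other one. The difference was 2.39 with a reciprocal overlap of 50%, 2.67 with centres within 200 bp, 1.67 after reweighting by length and 2.78 against groups of 2 or 3. With lists of equal length, which left 592 peaks in each TGIF1 list, it was 0.982. The share of hub regions without MEIS1 under 4-OHT was 2.05% in hubs of 5 or more, 7.28% with centres within 200 bp, 5.47% with the longer 50%, 5.14% with equal lists and 32.1% by absence from MEIS1 4-OHT replicate 1 alone, and 2.66 to 32.1% without single libraries (32.1% without MEIS1 4-OHT replicate 2). The value of 32.1% is the same count under both names. The causes of these shifts were not tested. Leaving out chromosome 15, chosen after seeing the data, gave 606 hubs and changed no direction. Of 50 values for the 10 largest hubs, 43 stayed within the exact 95% interval of the main count and 7 moved. These intervals are wide, since the hubs held 9 to 14 regions each. In chr16:95624852-95686709 the 4 regions with TGIF1 became 2 with a reciprocal overlap of 50%, which still counted as within. The 43 therefore do not show that the counts are stable.

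Depth is unknown, and presence of a peak depends on it. With 2 libraries per group the exact permutation tests used cannot pass a threshold of 0.05. Hubs were chosen on MEIS1 EtOH lists, which favours EtOH in every MEIS1 comparison. Regions of 1 hub are not independent. A list for IgG was not analysed here, so sites recovered by any antibody were not measured. The 21 hubs in or beside 1-Mb windows with recurrent peaks of 3 kb or more were kept, and without them the TGIF1 log2 ratio was 3.69 and the difference in TGIF1 share was 5.10 points.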
